A study of Mus musculus with 6 samples.

Results

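Fatty acid synthesis and desaturation was followed through 10 genes: Acly, Acss2, Acaca, Fasn, Scd1, Scd2, Fads1, Fads2, Acsl3 and Srebf1. They were taken as a named list out of 55471 genes in the expression tables, not by a cut on measured values. Earlier results of these data were known when the list was chosen. All 10 passed the filter on low counts that left 12546 genes for testing. The cells were OT-I CD8+ T cells, specific for an ovalbumin peptide, that had been transferred into mice bearing KPC_OVA tumours, a pancreatic cancer line engineered to make ovalbumin and implanted orthotopically. Donor T cells of both groups carried the Cas9 knock-in, were transduced with a lentiviral vector that marks cells with CD90.1, and held either a guide against Elovl1 (sgElovl1, 3 libraries) or a non-targeting guide (sgNT, 3 libraries). All recipients received anti-PD-1 from the day after transfer, and CD90.1+ cells were sorted from the primary tumour 7 days after transfer. Replicates 1 and 2 of sgElovl1 are pools of 2 tumours each. The ages of the mice are not given in the labels. The genotype field speaks of a CRISPR library, while the titles name 1 guide target per sample, and the titles were followed.

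Cells make fatty acids from acetyl-CoA. ATP citrate lyase (Acly) and cytosolic acetyl-CoA synthetase (Acss2) supply it, acetyl-CoA carboxylase (Acaca) turns it into malonyl-CoA, and fatty acid synthase (Fasn) builds palmitate. Stearoyl-CoA desaturases (Scd1, Scd2) place a double bond in saturated acyl chains, Fads1 and Fads2 desaturate polyunsaturated ones, Acsl3 activates fatty acids by joining them to coenzyme A, and Srebf1 encodes SREBP1, a transcription factor for many of these enzymes. Activated T cells use this pathway for membrane growth, and Elovl1, the gene targeted here, lengthens long saturated chains downstream of it.

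Total expected counts were 21980273 to 26165380 per library. Levels are given as CPM, which sets each TMM-scaled library to 1e+06 counts, and fold changes as log2 of sgElovl1 over sgNT. Elovl1 itself was at 81.5, 76.6 and 95.4 CPM in sgElovl1 replicates 1 to 3 and at 283, 280 and 255 CPM in sgNT replicates 1 to 3, or -1.69 on the log2 scale (SE 0.12, edgeR adjusted p = 8.71e-05). The first principal component of all tested genes (45.8% of the variance) parted the groups, and the second (29.5%) separated the third libraries from the rest. CD8 T cell markers were abundant in all 6 libraries, with all 9 listed markers detected. Their summed level was lower in sgElovl1, at 9412 to 10660 CPM, than in sgNT libraries, at 11637 to 12118 CPM, and Cd8a (-0.45, edgeR adjusted p = 0.0346) and Cd8b1 (-0.49, 0.0211) fell while Cd3e rose (0.40, 0.0493). Mitochondrial transcripts held 1.04 to 1.62% of counts in sgElovl1 and 0.233 to 0.493% in sgNT libraries. The median log2 fold change was -0.09 over the 2510 shortest genes and 0.32 over the 2509 longest. The part of these differences in the results below was not tested, other than by the length correction given beside them.

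None of the 10 genes passed the test, where 13.8% of all tested genes did (edgeR's quasi-likelihood F-test, Benjamini-Hochberg adjusted p under 0.05 over 12546 genes). At an unadjusted p under 0.05 there were 3, namely Acly, Scd2 and Fads2, where 32.2% of all tested genes were, and DESeq2 and limma-voom each called 1, Scd2. All 10 fold changes were above 0, with a median of 0.22 on the log2 scale, against a median of -0.00 over all tested genes and 0.32 over the 2509 longest. The shared sign was lost with the gene length offset, where Acly, Acaca, Fads1 and Acss2 were below 0, and in TPM, where Acaca and Fasn were. The desaturases Scd1, Scd2 and Fads2 had the largest estimates, and those estimates depended on 1 control library, sgNT replicate 3. Without it, Scd1, Scd2 and Fads2 were higher in sgElovl1 cells past the test, 3 of 10 where 7.08% of all tested genes were called higher (10.4% in either direction). With any other single library left out none was called, and the log2 fold changes were 0.69 to 0.99 for Scd2, 0.63 to 0.95 for Fads2 and 0.66 to 1.33 for Scd1.

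**Figure D1:**
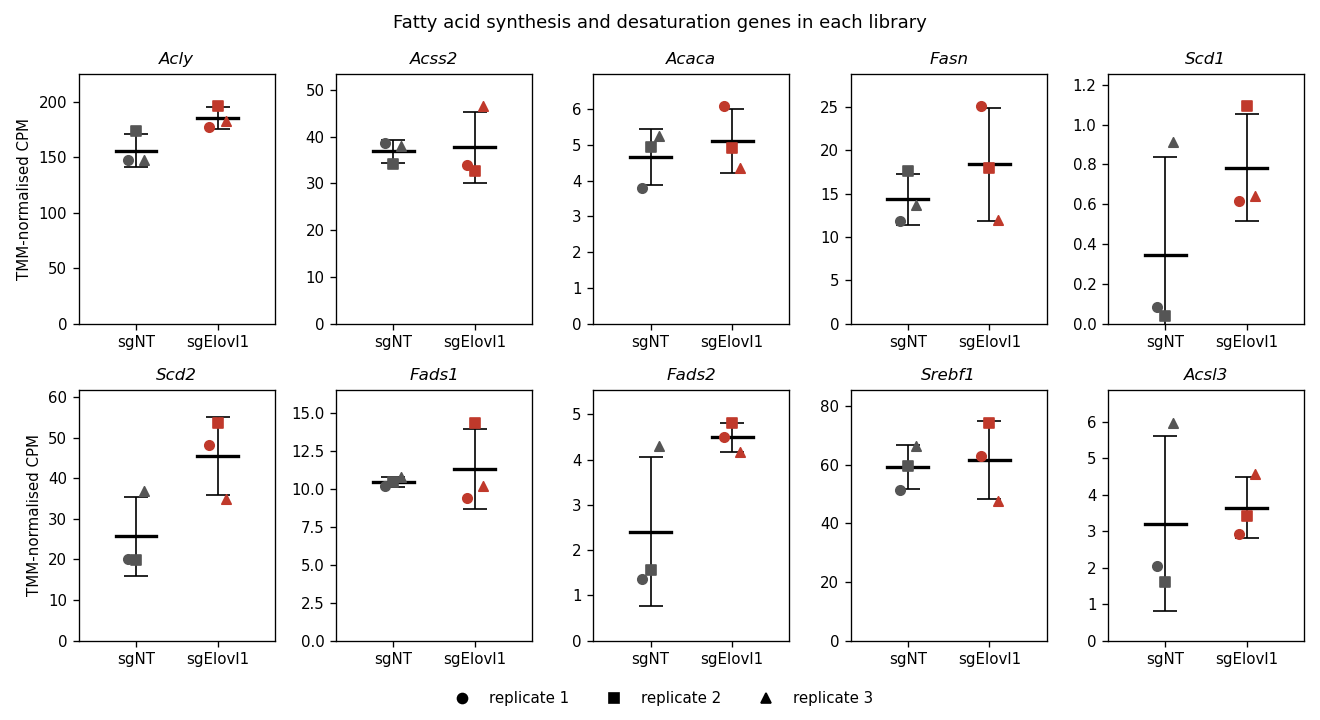
Level of each of the 10 genes (TMM-normalised CPM, linear axis from 0) in the 3 sgNT and 3 sgElovl1 libraries; symbols mark the replicate, thick lines the mean and bars the SD (n = 3), drawn no lower than 0. In Scd1, Scd2 and Fads2, sgNT replicate 3 (grey triangle) lies within the range of the sgElovl1 libraries, for Scd2 near its lower end. In Acsl3 it lies above them. In these genes sgNT replicates 1 and 2 lie below all sgElovl1 libraries.

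The reference table of RefSeq promoters (GRCm38.p6, 250 bases before to 50 after each start) held 7 of the 10 genes, in 9 windows; Scd1, Scd2 and Fads1 had no entry. Stretches before the start are shown for Fasn and Acsl3, in which matches lie next to each other, beside Hmgcs1, a cholesterol synthesis gene whose window holds the sterol response element searched here. Capitals mark matches, as written or as the reverse complement, to the CCAAT box, to the GC box (spelled GGGCGG) or to the sterol response element (spelled TCACNCCAC).
Fasn, chr11:120824588-120824667, minus strand: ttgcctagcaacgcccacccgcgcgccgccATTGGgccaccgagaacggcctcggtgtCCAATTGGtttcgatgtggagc
Acsl3, chr1:78657725-78657824, plus strand: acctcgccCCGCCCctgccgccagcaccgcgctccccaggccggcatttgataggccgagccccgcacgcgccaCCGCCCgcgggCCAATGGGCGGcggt
Hmgcs1, chr13:119690181-119690270, plus strand: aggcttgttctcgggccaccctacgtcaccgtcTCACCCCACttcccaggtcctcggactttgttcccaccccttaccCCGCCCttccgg

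A sterol response element (TCACNCCAC), the kind of site SREBP proteins bind, was found in the windows of 0 of the 7 genes and in 1.24% of 32851 RefSeq windows. The E-box CACGTG was likewise found in 0 of 7, against 7.15% of windows. CCAAT was found in 5 of 7 genes (37.4% of windows) and the GC box GGGCGG in 5 of 7 genes (35.7% of windows). A gene was counted if any of its windows matched, whereas the shares are per window. In Fasn, CCAAT matches on opposite strands overlap, and in Acsl3 a CCAAT match is followed directly by a GC box. The windows of Fads2 and Acss2 and 2 of the 3 windows of Srebf1 start from a RefSeq position that is no GENCODE M21 transcript start, and the GC box match of Fads2 lies inside its GENCODE gene. As spelled here, the sterol response element was in 0 of the 6 SREBP processing genes listed below. It was in 1 of the 4 listed cholesterol genes with an entry. These are matches of letters in a window and show no binding, and a missing match does not show that a site is absent.

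Acly was the highest of the 10 per length, with a mean of 50.6 TPM over the 6 libraries (scaled to transcript length and library), above 77.9% of tested genes. Its level was 177, 196 and 183 CPM in sgElovl1 replicates 1 to 3 and 148, 173 and 147 CPM in sgNT replicates 1 to 3. It was the only one of the 10 whose groups did not overlap, as was so for 37.1% of all tested genes. The fold change was small, 0.25 on the log2 scale (95% interval 0.00 to 0.50, edgeR adjusted p = 0.155), and -0.01 with the gene length offset. Acly lies on chromosome 11, from 100476353 to 100528000 (GRCm38, GENCODE M21).

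Acss2, which makes acetyl-CoA from acetate, was at 33.9, 32.7 and 46.5 CPM in sgElovl1 and at 38.6, 34.1 and 38.0 CPM in sgNT libraries. The groups overlapped and the log2 fold change was 0.03 (95% interval -0.29 to 0.35, edgeR adjusted p = 0.909). Its 155517948 to 155585724 interval is on chromosome 2. In TPM, Acly stood at 2.75 to 4.10 times the level of Acss2 in the 6 libraries, with overlapping groups.

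The committed steps of synthesis were low and did not part the groups. Acaca (chromosome 11, 84129672 to 84401651) was at 6.08, 4.92 and 4.34 CPM in sgElovl1 and at 3.79, 4.95 and 5.26 CPM in sgNT libraries, with a log2 fold change of 0.13 (95% interval -0.39 to 0.66, edgeR adjusted p = 0.739). Its relative Acacb, the carboxylase tied to control of fatty acid oxidation, had 2 to 10 counts per library and was not tested. Fasn (chromosome 11, 120805846 to 120824547) was at 25.1, 18.0 and 12.0 CPM in sgElovl1 and at 11.8, 17.6 and 13.7 CPM in sgNT libraries. The groups overlapped, and the log2 fold change was 0.36 (95% interval -0.23 to 0.94, edgeR adjusted p = 0.371). In TPM the estimates of Acaca and Fasn were below 0, at -0.41 and -0.21 on the log2(TPM + 0.1) scale (limma adjusted p = 0.545 and 0.755). TPM divides by a transcript length estimated in each library. Its mean was 6102 bases in sgElovl1 and 4234 bases in sgNT for Acaca, where the groups overlapped. For Fasn it was 4737 and 3271 bases. How far these lengths set the sign was not tested.

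Scd2 was the main Δ9 desaturase of these cells, with 7.55 TPM on average against 0.162 TPM for Scd1. Both lie on chromosome 19, Scd2 from 44293674 to 44306864 and Scd1 from 44394455 to 44407879. Scd2 was at 48.2, 53.6 and 34.9 CPM in sgElovl1 replicates 1 to 3 and at 20.2, 19.9 and 36.9 CPM in sgNT replicates 1 to 3. Replicates 1 and 2 of sgNT were the lowest 2 libraries, and sgNT replicate 3 lay above sgElovl1 replicate 3. Mean levels were 45.6 ± 9.65 and 25.7 ± 9.74 CPM (SD, n = 3 each), 1.78-fold higher in sgElovl1, with a log2 fold change of 0.83 (SE 0.28, 95% interval 0.17 to 1.49, edgeR adjusted p = 0.0933).

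The call for Scd2 turned on the test and on the library. DESeq2 (adjusted p = 0.00741, 1 of the 10 genes where 19.8% of all were called), limma-voom (0.0446, 13.3%) and limma on log2(TPM + 0.1) (0.0409, 7.71%) or log2(TPM + 1) (0.0459, 7.36%) called it. Without sgNT replicate 3 it was 2.30-fold higher in sgElovl1 (log2 fold change 1.20, edgeR adjusted p = 0.0103). With the gene length offset the estimate was 0.48 (edgeR adjusted p = 0.281). TPM also rests on the estimated Scd2 transcript length, where a shorter length gives a higher TPM. That length was 5455 bases in each sgNT library and 5455, 4879 and 4537 bases in sgElovl1 replicates 1 to 3. The part of this in the limma calls on TPM was not tested.

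Fads2, the Δ6 desaturase, was likewise lowest in sgNT replicates 1 and 2, at a lower level. It was at 4.50, 4.81 and 4.16 CPM in sgElovl1 replicates 1 to 3 and at 1.36, 1.56 and 4.30 CPM in sgNT replicates 1 to 3. Only sgNT replicate 3 fell within the range of the sgElovl1 libraries. The log2 fold change was 0.90 (95% interval 0.00 to 1.79, edgeR adjusted p = 0.154), and without sgNT replicate 3 it was 1.63 (3.09-fold, edgeR adjusted p = 0.0139). Fads2 lies on chromosome 19, from 10062765 to 10101746.

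Fads1, the neighbouring Δ5 desaturase (chromosome 19, 10182888 to 10196877), did not follow Fads2. It was at 9.36, 14.3 and 10.2 CPM in sgElovl1 and at 10.1, 10.4 and 10.8 CPM in sgNT libraries, with a log2 fold change of 0.11 (95% interval -0.30 to 0.53, edgeR adjusted p = 0.718). In TPM, Fads1 stood at 2.05, 2.86 and 2.56 times Fads2 in sgElovl1 replicates 1 to 3 and at 6.75, 5.74 and 1.96 times in sgNT replicates 1 to 3. The log2 ratio differed by -0.68 between the groups (exact permutation test, two-sided, p = 0.4, adjusted p = 1 over 6 pairs; 3 against 3 libraries cannot go below 0.1). The other 5 ratios tested, Scd2 to Scd1, Acly to Acss2, Acaca to Acacb, Srebf1 to Srebf2 and Fasn to Acaca, had exact permutation p from 0.3 to 1, and the groups overlapped in each.

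Scd1 was close to the limit of detection. It had 16, 30 and 14 counts in sgElovl1 replicates 1 to 3 and 2, 1 and 22 counts in sgNT replicates 1 to 3, so that sgNT replicates 1 and 2 were under a floor of 3 counts. The 60 counts of sgElovl1 against the 3 counts of sgNT replicates 1 and 2 gave a ratio of 13.0 after scaling (95% exact interval 4.26 to 65.1, counting error only). Against sgNT replicate 3 the ratio was 0.875 (0.529 to 1.498). The sgNT libraries were split here by their own Scd1 counts, so neither interval tests the guide. Over all 6 libraries the log2 fold change was 1.18 (95% interval -0.77 to 3.13, edgeR adjusted p = 0.378). RSEM divides reads shared between related copies such as Scd1 and Scd2 by estimate, so a value this low is uncertain. Scd3 was at 0 counts in every library, and Scd4 had 0 to 9 counts and was not tested.

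**Figure D2:**
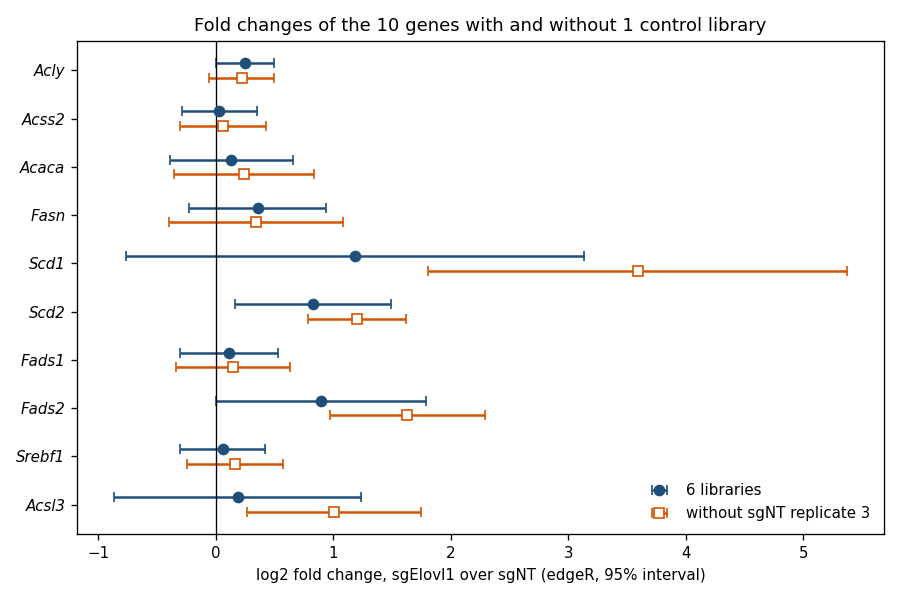
Log2 fold change of each gene (sgElovl1 over sgNT, edgeR, points) with its 95% interval (bars), for 6 libraries (filled circles) and without sgNT replicate 3 (open squares). Scd2 goes from 0.83 to 1.20, Fads2 from 0.90 to 1.63 Scd1 from 1.18 to 3.59 and Acsl3 from 0.18 to 1.01, while Acly, Acss2, Acaca, Fasn, Fads1 and Srebf1 stay between 0.03 and 0.36.

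Acsl3, an acyl-CoA synthetase of the endoplasmic reticulum and lipid droplets, was at 2.93, 3.42 and 4.57 CPM in sgElovl1 replicates 1 to 3 and at 2.04, 1.60 and 5.96 CPM in sgNT replicates 1 to 3. The third library was the highest of each group. The log2 fold change was 0.18 (95% interval -0.87 to 1.24, edgeR adjusted p = 0.818) and 1.01 without sgNT replicate 3 (edgeR adjusted p = 0.0774). Acsl3 lies on chromosome 1, from 78657825 to 78707743.

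Srebf1, the second highest of the 10 per length at 26.4 TPM, was at 62.8, 74.2 and 47.5 CPM in sgElovl1 and at 51.3, 59.6 and 66.4 CPM in sgNT libraries. The groups overlapped, and the log2 fold change was 0.06 (95% interval -0.30 to 0.42, edgeR adjusted p = 0.838). Counts over the whole gene (chromosome 11, 60199089 to 60222581) do not separate its transcripts, and they do not measure the processed protein. Srebf1 stood at 0.361 to 0.678 times Srebf2 in TPM.

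Ordered by mean TPM, the 10 genes ran Acly, Srebf1, Acss2, Scd2, Fasn, Fads1, Acsl3, Fads2, Acaca and Scd1. The first 3 and Scd1 did not overlap their neighbours in the 6 libraries, whereas each neighbouring pair from Scd2 to Acaca did. Summed over the 10 genes, the level was 114, 128 and 119 TPM in sgElovl1 and 94.2, 118 and 106 TPM in sgNT libraries.

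The spread of Scd1, Scd2, Fads2 and Acsl3 within sgNT was wider than in 96.8, 89.7, 96.7 and 97.7% of tested genes. Replicate 3 was the highest sgNT library in 7 of the 10 genes and in 36.2% of all tested genes. That library also held the most tumour epithelium RNA: 8 keratin and epithelial markers summed to 963 CPM in it, to 53.2 and 45.1 CPM in sgNT replicates 1 and 2, and to 32.7, 42.4 and 321 CPM in sgElovl1 replicates 1 to 3. Krt8 was at 330 CPM in sgNT replicate 3 and at 2.12 to 106 CPM elsewhere. In bulk samples, more cells of another type and more RNA per cell cannot be told apart.

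Me1, which supplies NADPH for synthesis, and the desaturase relative Fads3 stood highest in sgNT replicate 3, as the epithelial markers did. Me1 was at 0.270, 0.255 and 3.84 CPM in sgElovl1 and at 0.383, 0.468 and 11.4 CPM in sgNT libraries. Fads3 was at 0.154, 0.182 and 0.412 CPM in sgElovl1 and at 0.213, 0.429 and 2.52 CPM in sgNT libraries. Outside sgNT replicate 3 it had only 4 to 11 counts per library. Within sgNT, Scd2 and Fads2 were also highest in replicate 3, at 36.9 and 4.30 CPM. Over all libraries, their highest levels were in sgElovl1 replicates 1 and 2. Those 2 libraries held as little epithelial RNA as sgNT replicates 1 and 2. The cause was not tested. Without the third library of both groups, Scd2 (1.34, edgeR adjusted p = 7.33e-05), Fads2 (1.67, 0.00279) and Scd1 (3.70, 0.00797) were called, where 31.5% of all genes were. Both sgElovl1 libraries left in that fit are pools of 2 tumours, and the part of pooling was not tested. With the epithelial marker sum as a covariate, chosen after the data were seen, Scd2 (0.96, edgeR adjusted p = 0.0464) and Fads2 (1.26, 0.0349) were called, where 17% of all genes were. That sum was 321 and 963 CPM in the third libraries and at most 53.2 CPM in the others. The covariate thus mostly marks the third libraries, and this fit is no separate check from those that leave them out.

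Macrophage and monocyte markers, all 10 detected, summed to 100, 162 and 321 CPM in sgElovl1 and to 42.8, 60.4 and 73.0 CPM in sgNT libraries. Cd68 was the largest part of the sgNT sums, at 38.3, 46.1 and 36.7 CPM. It was at 27.5, 29.0 and 39.4 CPM in sgElovl1 (-0.34, edgeR adjusted p = 0.159). Cd68 alone of the tested markers in this list had an estimate below 0. Adgre1 (8.30, edgeR adjusted p = 0.006, at 0 CPM in every sgNT library) and C1qa (3.21, 0.038) were called higher, and the rest were not called. The markers as a sum separated the groups and cannot be told apart from the guide in these libraries. With their sum as a covariate, also chosen after the data were seen, none of the 10 genes was called, where 6.63% of all genes were; Scd2 had a log2 fold change of 0.90 (edgeR adjusted p = 0.328) and Fads2 of 0.49 (0.676). Neutrophil markers, 5 of 6 detected, also separated the groups, at 1.23 to 3.61 CPM in sgElovl1 and 0 to 0.383 CPM in sgNT libraries, as did Cd4 and Foxp3 together, at 1.51 to 2.81 CPM and 3.56 to 8.69 CPM; Foxp3 fell (-1.67, edgeR adjusted p = 0.0201). The part of these in the results was not tested. Of 8 adipocyte markers, Adipoq, Plin1, Cfd and Plin4 were at 0 counts in all libraries, and the summed level was at most 2.28 CPM.

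**Figure D3:**
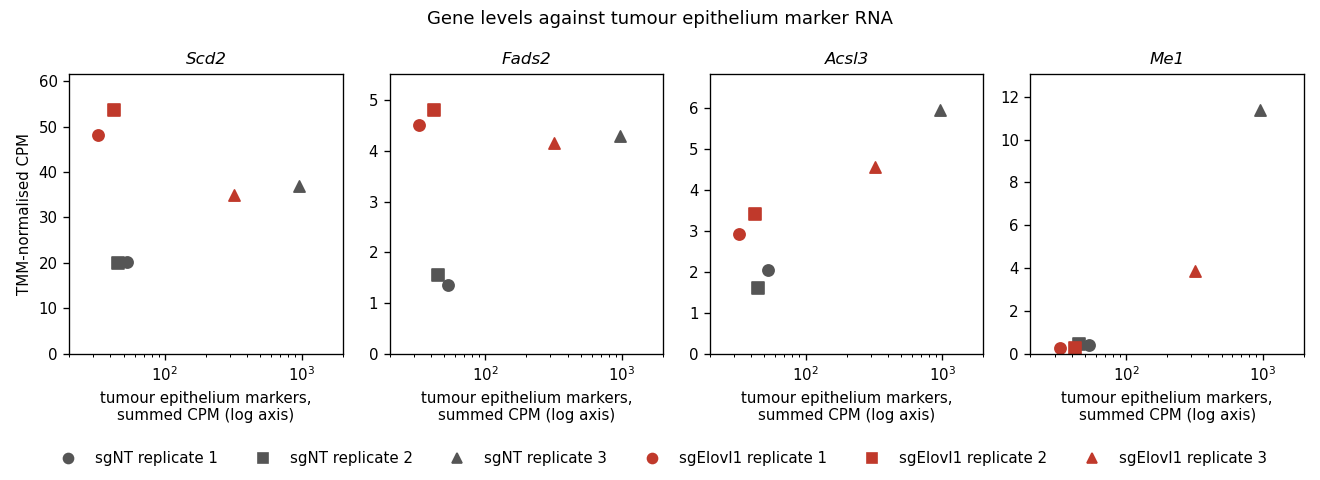
Level of Scd2, Fads2, Acsl3 and Me1 (TMM-normalised CPM, linear axis from 0) against the summed CPM of 8 tumour epithelium markers (log axis), 1 point per library. Me1 is high only in the 2 libraries with marker sums of 321 and 963 CPM. Scd2 and Fads2 are highest in sgElovl1 replicates 1 and 2, at sums of 32.7 and 42.4 CPM. Within sgNT they are highest at 963 CPM.

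The wider pathway was read from 13 further lists of 89 genes, of which 79 were tested, 7 were higher and 6 lower, beside 8.64% and 5.13% of all tested genes. Most of the genes that rose belonged to SREBP processing and the cell cycle. In SREBP processing 2 of 6 rose: Insig1, which holds SREBP in the endoplasmic reticulum, at 44.7 ± 5.73 CPM against 21.1 ± 5.07 CPM in sgNT (SD, n = 3 each, log2 fold change 1.08, edgeR adjusted p = 0.00431), and Scap, which escorts SREBP to the Golgi (0.62, adjusted p = 0.012).

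As for Scd2, replicate 3 was the highest sgNT library in 6 of the 8 listed cholesterol genes controlled by SREBP2 and in 4 of the 6 SREBP processing genes. Of the 4 of these cholesterol genes with a promoter entry, Hmgcs1 held the sterol response element. The cell cycle genes Top2a (0.75, edgeR adjusted p = 0.0025), Ccnb1 (0.55, 0.0111) and Mki67 (0.52, 0.0164) rose, 3 of 10.

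The genes that fell included 3 of the 7 tested in malonyl-CoA control. These were Mlycd, malonyl-CoA decarboxylase (-0.49, edgeR adjusted p = 0.0345), the AMPK subunit gene Prkab1 (-0.43, 0.036), and Stk11, which encodes the AMPK-activating kinase LKB1 (-0.94, 0.017). Mlycd was at 22.3, 17.8 and 19.6 CPM in sgElovl1 and at 29.2, 26.2 and 28.7 CPM in sgNT libraries, without overlap. Mcat of mitochondrial fatty acid synthesis (-0.58, edgeR adjusted p = 0.0131), the E-box binding factor Usf2 (-0.63, 0.0321) and the acyltransferase Agpat3 (-0.51, 0.0156) also fell, each as 1 gene of its list. Of the 13 calls in these lists, Insig1 and Top2a held in each fit with 1 library removed, and the other 11 were lost without replicate 2 of either group. Mlycd, Prkab1 and Usf2 were also lost without sgNT replicate 3, and Mlycd, Prkab1, Usf2, Agpat3 and Mki67 were among those lost with the gene length offset.

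No gene passed the test in 5 lists: acetyl-CoA supply, NADPH supply, desaturase relatives, elongation, and acyl-CoA synthetases; nor did either tested gene of fatty acid uptake. The smallest p of each belonged to the citrate carrier Slc25a1 (-0.38, edgeR adjusted p = 0.169), Me1 (-1.51, 0.647), Fads3 (-2.09, 0.146), the enoyl reductase Tecr (-0.45, 0.0502), Acsl4 (0.30, 0.0877) and the uptake receptor Cd36 (1.10, 0.132). With the replicate number as a block, Tecr had an adjusted p of 0.0485.

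**Figure D4:**
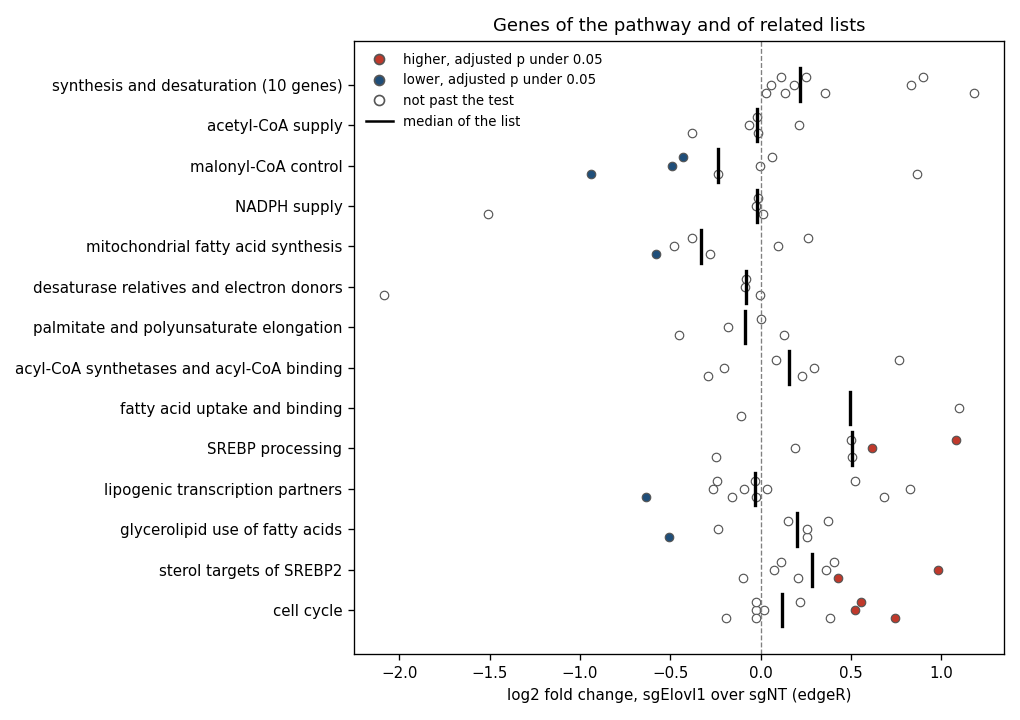
Log2 fold change (sgElovl1 over sgNT, edgeR) of each tested gene of the 10-gene list and of 13 related lists; red points were higher and blue points lower at an adjusted p under 0.05, white points did not pass the test, and black lines mark list medians. No point of the 10-gene list is coloured, and 3 of 7 in malonyl-CoA control are blue.

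The quantification also gives each gene an abundance-weighted mean transcript length, which moves with the mix of its transcripts. In 3 of the 10 genes the groups did not overlap, beside 20.4% of the 10401 genes whose length varied. For Acly the length was 3954, 3906 and 3873 bases in sgElovl1 and 3610, 3427 and 3713 bases in sgNT libraries. For Fasn it was 4360, 5167 and 4685 bases in sgElovl1 and 3946, 2748 and 3120 bases in sgNT libraries. Fads1 went the other way, with 3056, 3267 and 3031 bases in sgElovl1 and 3407, 3428 and 3425 bases in sgNT libraries. These lengths are estimates from short reads, and whether they bear on the length trend over all genes was not tested.

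**Figure D5:**
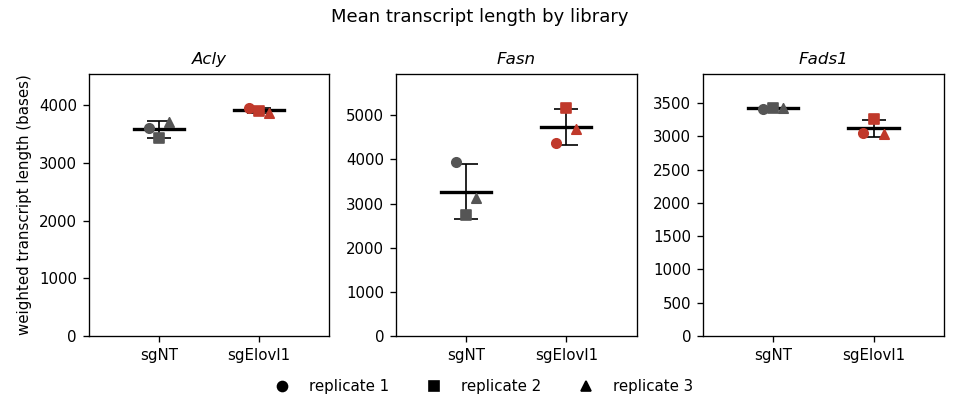
Abundance-weighted transcript length in bases (linear axis from 0) of Acly, Fasn and Fads1 in each library; symbols mark the replicate, thick lines the mean and bars the SD (n = 3). All sgElovl1 libraries are longer for Acly and Fasn and shorter for Fads1.

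Over the 6 libraries, the genes whose levels ran most like those of the desaturases, out of 8721 with at least 5 CPM on average, were Slc25a40 (Pearson's r = 0.99) and Pxn (0.99) for Scd2, Ywhaz (0.99) and Tspyl1 (0.98) for Fads2, and Tmem68 (0.99) and Fubp3 (0.99) for Scd1. For Fads1 the nearest were Car5b (0.91) and Akt1 (0.89). For Fasn they were Relb (0.99) and Mast2 (0.98), for Acly Rev1 (0.99) and Mis12 (0.99), and for Srebf1 Rell1 (0.99) and Idh2 (0.98). For Acaca they were Pip5k1c (0.98) and Cul4b (0.98), for Acsl3 Pik3ap1 (0.98) and F2r (0.97), and for Acss2 Mrps33 (0.996) and D16Ertd472e (0.99). These points share 6 libraries and their depth, and are given as a description.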

How the data were processed

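RNA of 6 sorted T cell samples was converted with a SMARTer kit. Per the submitters' processing notes the authors mapped reads to mm10 with STAR 2.7.7a, quantified genes with RSEM 1.3.1 and ran DESeq2 1.36.0; the annotation release and RSEM strand setting are not given in the sources used here. The deposited expected counts are estimated read pairs per gene, not scaled between libraries, and were rounded to whole numbers. The deposited TPM values are scaled to length and library by the authors. The deposited gene lengths, weighted by transcript abundance, are in bases. Of 55471 gene IDs, 55144 matched a symbol in GENCODE M21 (GRCm38, the assembly of mm10), which gave the coordinates.

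Libraries were grouped by their titles. edgeR 4.0.16 (R 4.3.3) was run with filterByExpr (minimum count 10), TMM and robust two-sided quasi-likelihood tests with the group as the only term; intervals are 95%. limma 3.58.1 and DESeq2 1.42.0 served as alternatives. The steps were tested on simulated data. The labels count the cells of different mice as biological replicates, and p-values measure the spread between these samples. No library pair was identical. Deviations from the group means correlated at r = 0.22, 0.32 and 0.40 between libraries of equal replicate number and at -0.33 to 0.16 between others. The 0.22 of the first libraries was near the 0.16 of sgElovl1 replicate 1 with sgNT replicate 2. A pairing by number is thus not established, and a replicate block was fitted only as an alternative.

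The 10 genes, the further lists, the markers and the alternatives were chosen with earlier results of these data known. Named were Elovl1, the 10 genes, the called genes of each list (at most 3, by smallest p) or else the one with the smallest p, and the 2 most correlated genes of at least 5 CPM per member. Markers and further genes set beside them (such as Krt8, Scd3, Scd4, Acacb, Srebf2 and Hmgcs1) come from the same lists or pairs. Marker lists of acinar, fibroblast, dendritic, B, endothelial and erythroid cells, whose groups overlapped, summed to 6.50 to 16.8, 0.116 to 0.777, 39.8 to 58.8, 6.01 to 9.07, 10.8 to 14.4 and 0 to 1.74 CPM. Some called genes of the further lists are not reported here. Protein sequences were not used here.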

Additional observations from a re-analysis of the deposited data

How the results depend on the processing

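Elovl1 kept its direction and call in all 18 alternatives, 16 planned and 2 chosen after the data were seen. The number of the 10 genes called was 0 and became 1 with DESeq2, limma-voom and limma on log2(TPM + 0.1) or log2(TPM + 1), 3 when both groups lost the third library, 2 with the tumour epithelium covariate, and 0 to 3 when 1 library was left out, where only the fit without sgNT replicate 3 gave 3 and the other 5 gave 0. Over all genes, 1727 calls became 967 and 923 with the TPM pseudocounts of 0.1 and 1, 1102 with the replicate block and length offset, 3986 without the third libraries, 832 with the macrophage covariate, and 321 (without sgElovl1 replicate 2) to 2718 (without sgElovl1 replicate 3) when 1 library was left out. The 13 calls in the further lists became 7 with the length offset, 6 with block and offset, 29 without the third libraries, 4 with the macrophage covariate, and 2 to 19 when 1 library was left out; Insig1 and Top2a were the 2 left without sgElovl1 replicate 2 or sgNT replicate 2. The replicate block gave 1676 calls over all genes, 0 of the 10 genes and 15 in the further lists; it changed no call among the 10 genes (Scd2 0.87, adjusted p = 0.0921, by edgeR).

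Fold changes that turned below 0 belonged to genes not called. With the length offset they were Acly -0.011, Acaca -0.21, Fads1 -0.070 and Acss2 -0.041, and with block and offset Acly -0.0093, Acaca -0.20, Fads1 -0.088, Srebf1 -0.0091 and Acss2 -0.057. On log2(TPM + 0.1) and log2(TPM + 1), Acaca was -0.41 and -0.23 and Fasn -0.21 and -0.17. Without the third libraries Acss2 was -0.13, and with the macrophage covariate Acsl3 was -0.81 and Acss2 -0.34. Leaving out 1 library gave -0.011 to 0.24 for Acaca, -0.095 to 0.23 for Fads1, -0.10 to 0.21 for Srebf1, -0.13 to 1.01 for Acsl3 and -0.15 to 0.12 for Acss2. Of the log2 level ratios, Scd2 to Scd1 (0.10) became -0.67 in CPM and -0.046 without the third libraries, and Acaca to Acacb (0.11) became -0.14 with a pseudocount of 1, -0.29 in CPM and -0.055 without the third libraries. The TPM ratios add a pseudocount of 0.1 to both genes. Scd1 was at only 0.02 and 0.01 TPM in sgNT replicates 1 and 2, and Acacb at 0.02 to 0.2 TPM over the libraries. The ratios of these 2 pairs thus depend on the pseudocount and are no measure of relative level. When 1 library was left out the ratios ran from -0.18 to 0.28 for Scd2 to Scd1, -0.12 to 0.20 for Acly to Acss2, -0.22 to 0.42 for Acaca to Acacb, -0.39 to 0.73 for Fasn to Acaca, -1.18 to -0.38 for Fads1 to Fads2 and -0.64 to -0.22 for Srebf1 to Srebf2. The cause was not tested. Depth limits Scd1 most, at 1 to 30 counts per library.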
